A study of Mus musculus with 576 samples.

Results

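The cells described here were cultured with the synthetic glucocorticoid dexamethasone, and those taken on day 3 (72 h) are set against those taken on day 2 (48 h). They were chosen by plate label and by well quality: a well was kept when it held 50000 counts or more, detected 1500 genes or more, and had no more than 20% of its counts on mitochondrially encoded genes. This left 92 of 96 wells on day 2 and 94 of 95 on day 3, so 186 of the 563 kept cells of the series. The series holds 6 plates, 1 for each of days 1, 2 and 3 without dexamethasone (control) and with it. All plates started from the liver of C57/Bl6J mouse embryos at day 14.5, depleted of cells with lineage antigens and sorted by CD117 (the product of Kit), CD71 (the product of Tfrc) and CD24 for burst forming unit-erythroid (BFU-E) cells, early committed progenitors of red cells. Every culture, control included, received stem cell factor (SCF) at 100 ng/mL, insulin-like growth factor 1 (IGF1) at 40 ng/mL and erythropoietin (EPO) at 2 U/mL, and the dexamethasone cultures received 100 nM of that drug. The labels name no replicate culture and do not say how many embryos gave the cells.

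Erythropoietin acts through its receptor and the kinase JAK2 to keep erythroid progenitors alive and dividing, and SCF acts through the receptor KIT. Progenitors that mature lose KIT and GATA2, gain KLF1 activity and build globin, heme and the red cell membrane. Glucocorticoids, acting through the receptor NR3C1, are known for holding BFU-E in a dividing progenitor state and delaying this maturation.

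Each day is 1 plate, so no difference here has a test, a standard error or a replicate check, and the cells are units of description only. Plate values are CPM, counts summed over the kept cells and set relative to library size after TMM (trimmed mean of M-values) scaling, with exact 95% Poisson intervals that cover the counting of reads only. Values of single cells are CPM without that scaling. The median cell held 1074683 counts on day 2 and 1094563 on day 3, with 8829 and 8520.5 genes detected. Mitochondrially encoded genes took a median of 4.61% and 5.69% of counts, and mt-Nd1 alone was at 4446 and 8001 CPM. Of the 13 mitochondrial genes 5 were listed under 1 CPM, mt-Co2 and mt-Co3 among them, so these shares do not cover all mitochondrial transcripts. Plate, day and anything else that differed between the plates cannot be told apart.

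The label of erythroid cells held for most wells. Gata1, the transcription factor that all erythroid cells need, was at 10 CPM or more in 88 of 92 cells on day 2 and 87 of 94 on day 3. The 88 include the day 2 cells with 36738 and 28763 CPM of Hdc, a mast cell and basophil gene, so Gata1 does not set such cells apart. At least 5 of 14 erythroid markers reached 10 CPM in 87 and 92 cells. On day 3 that exceeds the 87 cells with Gata1, so this marker count does not set apart the cells low in Gata1. The 4 and 7 cells with less Gata1 had a median of 12226 and 7580.2 CPM of Mpo, the myeloperoxidase of neutrophil precursors, against 0.182 CPM in the other day 2 cells. All 4 had a count of Mpo on day 2, and 5 of the 7 on day 3. Among the other day 3 cells its median was 0.593 CPM in those under 100 CPM of Slc4a1. It was 0 in those at 100 CPM or more, where the highest cell held 2132 CPM. The cells with less Gata1 stay in the values below unless a value without them is given.

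The largest rises among the named globin, heme and membrane genes that have a promoter entry in RefSeq belonged to Hba-x, Hba-a2 and Hba-a1 of the alpha globin cluster on chromosome 11. Of 11 named genes of these lists 9 had an entry; Slc4a1 is named only. The windows of the adult pair are shown because 297 of 297 aligned bases are identical, with an offset of 3 bases. Reads of such copies may be split or exchanged in counting. Capitals mark the letters TGATAA, a form of the GATA motif. The motif was searched on both strands as AGATAA or, with another last base, AGATAG, and with another first base as TGATAA or else TGATAG. Each window runs from 250 bases before the start of the gene to 50 after it, on the plus strand of GRCm38.p6.
Hba-a2 (chr11:32296242-32296541): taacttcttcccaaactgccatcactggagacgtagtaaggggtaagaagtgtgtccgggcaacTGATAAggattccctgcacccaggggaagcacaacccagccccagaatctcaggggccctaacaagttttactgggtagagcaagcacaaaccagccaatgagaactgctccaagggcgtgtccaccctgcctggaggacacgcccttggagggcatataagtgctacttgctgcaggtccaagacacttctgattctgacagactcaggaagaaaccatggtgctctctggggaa
Hba-a1 (chr11:32283422-32283721): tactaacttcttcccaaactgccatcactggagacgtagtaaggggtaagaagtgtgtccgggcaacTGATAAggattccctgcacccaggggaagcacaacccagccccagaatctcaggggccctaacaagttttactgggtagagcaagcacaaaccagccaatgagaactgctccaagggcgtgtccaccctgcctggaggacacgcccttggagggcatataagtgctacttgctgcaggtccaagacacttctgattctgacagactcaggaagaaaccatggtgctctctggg
A GATA form is present in 29.8% of 32851 RefSeq promoter windows of this length, and CCACACCC, a form of the CACCC motif, is in neither window and in 3.56% of all. The match describes letters and is no measure of binding. The window of Hba-x is not shown, since 93.8% of its day 3 counts came from 1 cell.

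Day 3 cells carried more transcripts of the red cell programme and fewer of glycolysis, of immediate early genes and of the progenitor receptor Kit. A level filter kept the 8268 genes whose mean over both plates was 10 CPM or more. Of these, 305 were at least 2-fold higher on day 3, which is 3.69%. Another 259 genes were at least 2-fold lower, which is 3.13%. A gene under 10 CPM on 1 day could pass the filter through the other day alone. Slc4a1, Dmtn, Trim10, Hba-a2 and Hba-x, among others, passed it through day 3, and Cth and Apoa1 through day 2. The median log2 ratio of all 8268 genes was 0.02. The 12 genes with the largest rises under the rule for named genes were Slc4a1, Hba-a2, Hbq1b, Hba-a1, Alas2, Hbb-bs, Trim10, Cdc25b, Hbb-bt, Dmtn, Mgst3 and Slc25a37. Most of them make globin chains, heme or parts of the red cell membrane. The 12 with the largest decreases were Cth, Apoa1, Il10ra, Nab2, Cd200r3, Egr1, Plod2, Ak4, Slc26a9, Cd200r4, Slc45a3 and Bnip3.

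**Figure D1:**
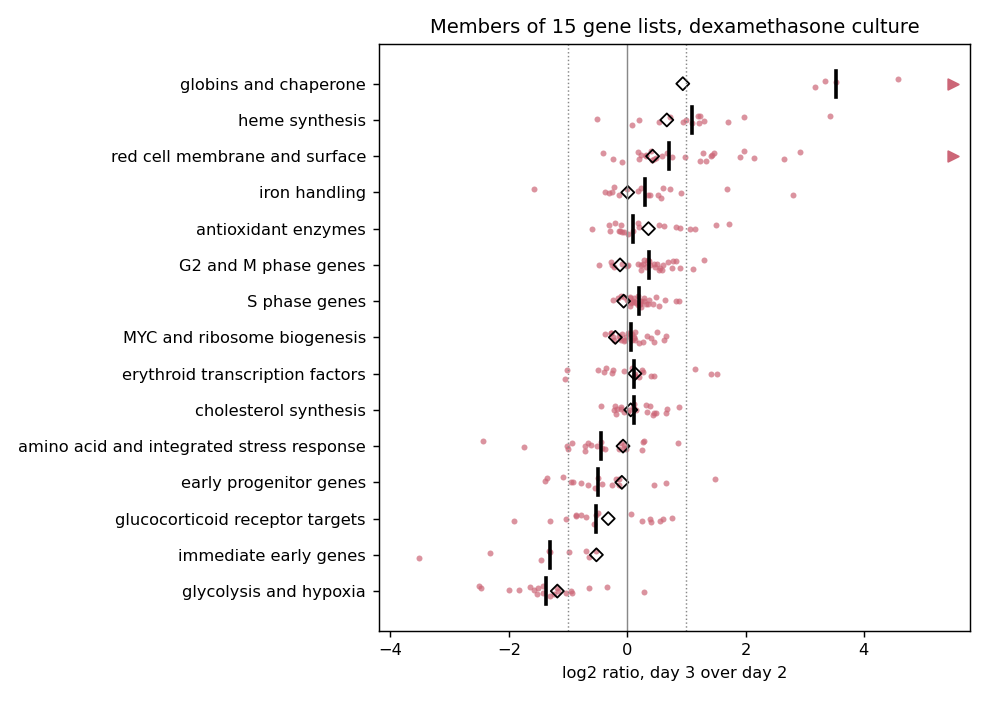
Log2 ratio of day 3 over day 2 in the dexamethasone culture (horizontal axis) for the members of 15 gene lists above the level filter. Points are genes, triangles at the right edge are Hba-x (10.20) and Slc4a1 (12.06), bars are list medians, open diamonds the median of the same genes in the control culture, and dotted lines mark 2-fold. Globins lie furthest to the right (median 3.53), glycolysis and hypoxia furthest to the left (median -1.37).

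Of 7 globin genes measured, 5 were above the level filter and all 5 were more than 2-fold higher on day 3, with a median log2 ratio of 3.53. Among the 5, Hba-a2 and Hba-x passed the filter only through their day 3 counts. For Hba-x, 93.8% of those counts came from 1 cell. In the control culture the same 5 genes had a median of 0.94 from day 2 to day 3. Hbb-bs, an adult beta globin (chr7:103826534-103828096), was at 326 CPM on day 2 (Poisson interval 323 to 329) and 3291 CPM on day 3 (3279.7 to 3302). The median cell held 115 CPM on day 2, within a range of 0 to 4932, and 2326 CPM on day 3, within 13.4 to 31851. The cells of both days overlap: 70 of 92 day 2 cells and 94 of 94 day 3 cells had at least 10 CPM. Those 94 include the 7 cells with little Gata1, which held 15 to 868 CPM around a median of 39.3 at a median depth of 1028487 counts. The cell at 868 CPM had a red cell membrane score, described below, of 5.713, against 2.135 to 2.872 in the others. Those others held at most 59.6 CPM of Hbb-bs, so a day 3 level of that size is read as background. The 4 day 2 cells with little Gata1 held at most 5.96 CPM. In male cells alone the log2 ratio of Hbb-bs was 4.06, against 3.34 in all. Hba-a1, an adult alpha globin, was at 112 and 1290.3 CPM. Hbb-bt, the near-identical partner of Hbb-bs, was at 43.9 and 397 CPM. Hba-a2 was at 1.36 and 33 CPM, and its log2 ratio of 4.58 became 3.63 when each cell was given equal weight. Hbq1b, a theta globin gene that is not on the list, was at 2.52 and 29.6 CPM. Day 3 levels stayed under those of control day 2, where Hbb-bs was at 5272 and Hba-a1 at 2183 CPM. The embryonic globins were rare: Hbb-y and Hbb-bh1 were at 1.31 and 1.49 CPM on day 3. Hba-x, the embryonic zeta globin, had no count on day 2, where 3 counts would give 0.0257 CPM. It was at 21.9 CPM on day 3, nearly all in the 1 cell named above.

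Heme is built from glycine and succinyl-CoA by a chain of enzymes in mitochondria and cytosol. Of its 15 listed genes, all above the level filter, 8 were at least 2-fold higher on day 3 and none at least 2-fold lower, with a median log2 ratio of 1.09. The control median was 0.67, with 3 genes 2-fold higher. Alas2, the erythroid form of the first enzyme (chrX:150547375-150570638), was at 18.5 CPM on day 2 (17.7 to 19.2) and 198 CPM on day 3 (195 to 201). Its median cell moved from 0 to 4.35 CPM and its highest cell from 461 to 3685, so the day 3 level rests on a minority of cells. Alad, which joins the first products into porphobilinogen, was raised more evenly. It was at 149.6 and 587 CPM, with cell medians of 114 and 506. Among the later enzymes, Uros was at 51.2 and 166 CPM, Urod at 122 and 279, and Ppox at 137 and 323. Fech, which inserts the iron, was at 616 and 1026 CPM, under 2-fold. Alas1, the housekeeping form of the first enzyme, was the 1 member lower on day 3, at 49.2 and 34.6 CPM.

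Iron handling was mixed: 2 of 18 genes were at least 2-fold higher, 1 at least 2-fold lower, and the median log2 ratio was 0.30. Slc25a37, the mitochondrial iron importer mitoferrin, was at 47.9 and 334 CPM. Its highest day 3 cell held 6169.6 CPM and the median cell 91, against 38.5 on day 2. Slc40a1, the iron exporter ferroportin, was at 15.6 and 50.5 CPM. Aco1, which carries the iron regulatory activity of IRP1, was lower: 356 CPM on day 2 and 119 CPM on day 3, with cell medians of 305 and 96.2. Tfrc, the transferrin receptor and a marker of the sort, was close on both days, at 1407 and 1590.1 CPM, while its cell range widened from 138 to 4473 on day 2 to 25.4 to 7054 on day 3.

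Of 28 genes of the red cell membrane and surface above the level filter, 12 were at least 2-fold higher on day 3 and none at least 2-fold lower. The median log2 ratio was 0.71, against 0.43 in control. Slc4a1, the anion exchanger band 3 (chr11:102348824-102366203, minus strand), had 10 counts on the day 2 plate, or 0.0855 CPM (0.0410 to 0.157), and 44572 on the day 3 plate, or 444 CPM (440.2 to 448). The ratio was 5196 (counting interval 2825 to 10836). Its log2 ratio of 12.06 was 8.12 when each cell was given equal weight. No day 2 cell reached 10 CPM, and 41 of 94 day 3 cells did. Among the 7 day 3 cells with little Gata1, most of which should lack the gene, 4 had a count and 2 passed 10 CPM. They held at most 18.7 CPM, so low levels of Slc4a1 on day 3 are read as background. At 100 CPM or more there were 24 day 3 cells. Rhd, the Rh blood group protein, was at 51.5 and 324 CPM. Dmtn, the actin bundling dematin, was at 6.08 and 46 CPM. Epb42, protein 4.2, was at 22.1 and 98.1 CPM, and Ank1, ankyrin, at 47.5 and 115 CPM. Sptb, a spectrin, was at 332 and 377 CPM. Rhag, the partner of Rh proteins, was at 824 and 948 CPM, and Add2, an adducin, was at 496 and 374 CPM. The list thus held both strong rises and small differences.

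**Figure D2:**
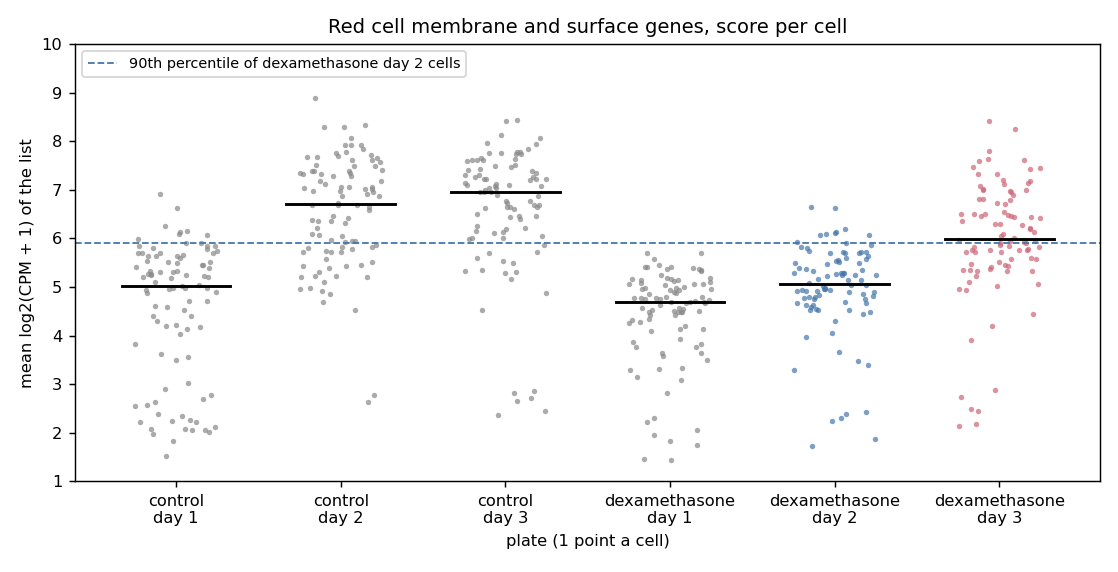
Score per cell (mean log2(CPM + 1) over 30 genes of the red cell membrane and surface, vertical axis) in the 6 plates; each point is a cell and black lines are medians. The dexamethasone median was 5.06 on day 2 and 5.99 on day 3, and 54.3% of day 3 cells lie above the dashed line, the 90th percentile of day 2.

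The mean log2(CPM + 1) over the membrane list gave each cell a score. Its median was 5.06 on day 2 (range 1.73 to 6.64) and 5.99 on day 3 (2.14 to 8.41). The lowest day 2 cell, at 1.73, was the one with 36738 CPM of Hdc. The standard deviation over cells was 0.98 and 1.25. Of day 3 cells, 54.3% (51 cells, exact Clopper-Pearson interval 43.7% to 64.6%) lay above 5.90, the 90th percentile of day 2 cells, and 27 lay above the highest day 2 cell. A range of 0.5 around that percentile held 36 day 3 cells. Control cells stood higher on both days, at medians of 6.71 and 6.95. Thinned to 500000 counts a cell, the dexamethasone medians were 5.08 and 5.95. The share was 58.6% without the cells low in Gata1, but 70.7% without all cells carrying at least 2 neutrophil, monocyte, mast cell or basophil markers. The mast cell and basophil list alone took out 45 of 92 day 2 and 28 of 94 day 3 cells. Most of these had Gata1, since only 4 and 7 cells were low in it. The share was 47.1% and 79.1% among female and male cells taken apart by Xist and Y-linked genes.

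The day 3 cells differed widely among themselves. The 24 cells with at least 100 CPM of Slc4a1 held 98.1% of the plate's Slc4a1 counts, which follows in part from the cut on that gene. Of other genes they held 85.8% of Alas2, 76.7% of Trim10, a ubiquitin ligase gene of the red cell lineage, and 53.7% of Hbb-bs. They held 6.95% of the Kit counts. Kit had a median of 9.64 CPM in these cells and 305 CPM in the 63 other cells with Gata1, against 684 CPM in the day 2 cells with Gata1. Hbb-bs had medians of 7614, 1722 and 128 CPM in the same order, so cells with little Slc4a1 on day 3 also held more globin than day 2 cells. The cut is a point in a range, with 8 cells between 50 and 200 CPM. The median depth of the 24 cells was 813205 counts, against 1164626 in the 63 others.

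**Figure D3:**
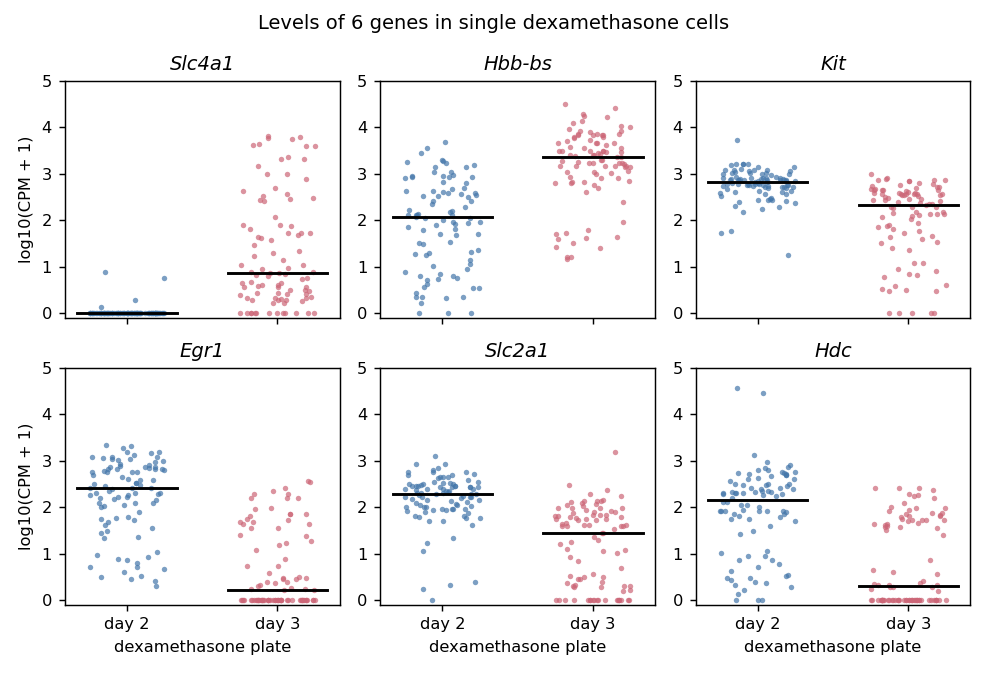
Levels in single cells of the dexamethasone plates on days 2 and 3 (log10(CPM + 1), vertical axis) for Slc4a1, Hbb-bs, Kit, Egr1, Slc2a1 and Hdc; each point is a cell and black lines are medians. Slc4a1 is near 0 in all day 2 cells and spread up to 6482 CPM on day 3, while Egr1 moves from a median of 254 CPM to 0.683.

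Among 20 transcription factors of the erythroid lineage, 3 were at least 2-fold higher and 2 at least 2-fold lower, with a median log2 ratio of 0.12. Klf1, the activator of beta globin and of many membrane genes, was at 200 CPM (197 to 203) and 445 CPM (441 to 449). Its median cell held 199 and 447 CPM, a shift of the bulk of the cells, with overlap. Klf3, a repressor related to KLF1, was at 21.4 and 61.3 CPM, and Sox6, known for silencing embryonic globin, at 19.4 and 52.2 CPM. Zfpm1, the GATA1 cofactor FOG1, was lower, at 26.9 and 13 CPM, as was Bach1, a heme-sensing repressor of globin genes, at 19.9 and 9.88 CPM. Gata1 itself was at 259.9 and 312 CPM.

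Early progenitor genes were mostly lower on day 3: 14 of 17 had a negative log2 ratio, 3 were at least 2-fold lower and the median was -0.49. The count at least 2-fold lower was 6 without the cells low in Gata1, 8 without the cells carrying myeloid or mast cell markers, and 7 in male cells. The control median was -0.09. Kit (chr5:75574916-75656722) was at 727 CPM on day 2 (722 to 732) and 279 CPM on day 3 (276 to 282). Cells ranged from 17.2 to 5427 CPM around a median of 675 on day 2, and from 0 to 974 around 216 on day 3. The day 2 cell at 5427 CPM of Kit was the one with 36738 CPM of Hdc. All 92 day 2 cells and 78 of 94 day 3 cells had at least 10 CPM. Gata2, the GATA factor of progenitors, was at 105 and 41.2 CPM, with cell medians of 75.8 and 6.26. Its log2 ratio of -1.35 was -0.83 in female and -2.24 in male cells. Il1rl1, the interleukin 33 receptor, was at 141 and 66.1 CPM. Cd34 appeared higher, at 17.2 and 48.4 CPM, but its log2 ratio of 1.49 turned to -1.55 without the cells low in Gata1, where it is mostly found. Relative to day 1 of the same culture (Kit 489, Gata2 71.9, Il1rl1 28.8 CPM), day 2 was the highest of the 3 plates for each of these 3 genes.

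The glucocorticoid receptor gene Nr3c1 was at 76.4 and 62.1 CPM. Of 17 of its known targets above the level filter, none was at least 2-fold higher on day 3 and 3 were at least 2-fold lower, with a median log2 ratio of -0.53. Without the cells carrying myeloid or mast cell markers 5 targets were at least 2-fold lower and the median was -0.32. In female cells 5 were lower and 1 higher, and in male cells 1 was lower and 3 higher. In control the same genes had a median of -0.32. Zbtb16, a zinc finger factor, was at 24.5 and 6.52 CPM, with a log2 ratio of -1.91 that was -3.17 without the marker cells. Zfp36, an mRNA decay factor, was at 14.6 and 5.88 CPM, with a log2 ratio of -1.31 that was -0.62 in male cells. Mt2, a metallothionein, was at 157 and 76.4 CPM, with a log2 ratio of -1.04 that stood at -0.97 without the cells low in Gata1 and at -0.48 in male cells. Fkbp5, a chaperone that binds the receptor complex, was at 43.6 CPM (42.4 to 44.8) and 26.8 CPM (25.8 to 27.8), with cell medians of 32.2 and 11.2. Per1, the clock gene, was at 79.5 and 43.6 CPM. Zfp36l2, known to be needed for BFU-E self-renewal, was at 54.7 and 31.8 CPM. Without the marker cells the log2 ratio of Fkbp5 went from -0.70 to -1.13 and that of Zfp36l2 from -0.78 to -1.07, both past 2-fold. These decreases were not shared by all targets: Tsc22d3, which encodes GILZ, was at 71.7 and 74.7 CPM. On day 3 each of Mt2, Fkbp5, Per1, Zfp36l2 and Tsc22d3 was still above the control plate of the same day, which held 0.972, 12.9, 12.9, 8.11 and 37.9 CPM. Zbtb16 was also above it, at 6.52 against 2.23 CPM. Zfp36 went the other way, at 5.88 CPM with dexamethasone against 13.4 CPM in control.

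Glycolysis and hypoxia genes were lower on day 3 nearly throughout. Of 20 above the level filter, 15 were at least 2-fold lower on day 3, none at least 2-fold higher, and the median log2 ratio was -1.37. The control culture gave -1.18, with 14 of 20 at least 2-fold lower. Aldoa, the aldolase of glycolysis, was at 3206 CPM (3196 to 3216) on day 2 and 1294 CPM (1287 to 1301) on day 3. Its cells ranged from 1180 to 6469 on day 2 and from 421 to 2487 on day 3. Ldha, lactate dehydrogenase, was at 4086 and 1813 CPM, and Pkm, pyruvate kinase, at 1779.6 and 618 CPM. Bnip3, a mitophagy gene induced by hypoxia, was at 126 and 22.1 CPM. Egln3, an oxygen-sensing hydroxylase, was at 215 and 60.8 CPM. The 1 member higher on day 3 was Pklr, the red cell pyruvate kinase, at 127 and 154 CPM. The other 4 short of 2-fold were lower: Hk1, the hexokinase of red cells, at 615 and 486 CPM, and the glycolytic enzymes Gapdh at 1098 and 700.1, Pgk1 at 229 and 119, and Pgam1 at 72 and 37.7 CPM. In the score of this list, 95.7% of day 3 cells (89.5% to 98.8%) lay below the 10th percentile of day 2 cells and 34 below the lowest. Summed over the 22 genes, dexamethasone plates held 10240.3, 16746 and 7461 CPM on days 1, 2 and 3, and control plates 8567, 16814 and 7532 CPM.

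**Figure D4:**
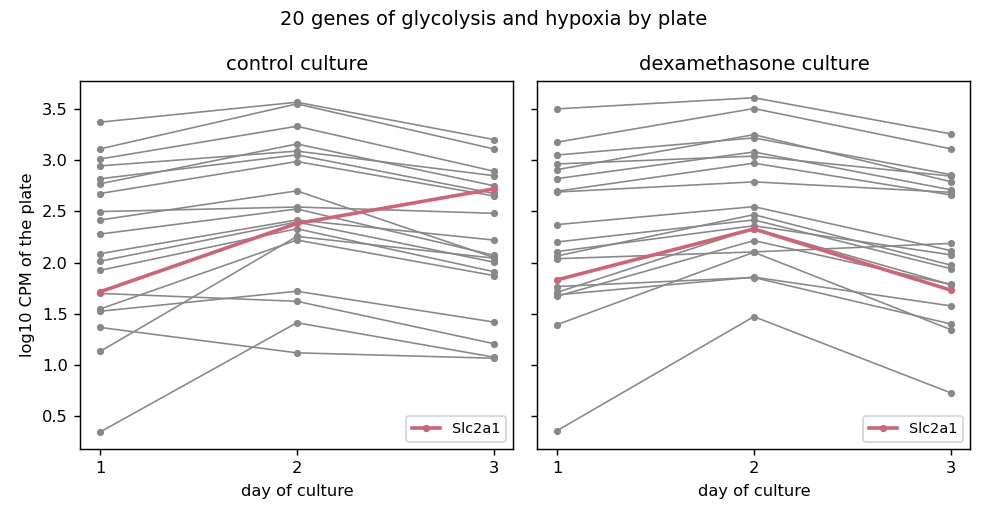
Plate levels (log10 CPM, vertical axis) of 20 glycolysis and hypoxia genes on days 1, 2 and 3 of the control and dexamethasone cultures; each line is a gene and Slc2a1 is in colour. Most lines peak on day 2 in both cultures, and the plate level of Slc2a1 parts on day 3, at 525 CPM in control, with 67.8% of its counts in 5 cells, and 53.7 CPM with dexamethasone.

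Slc2a1, the glucose transporter GLUT1, was lower on the day 3 plate with dexamethasone and higher on that of control, but the median cell was lower in both. With dexamethasone it was at 213 CPM (211 to 216) and 53.7 CPM (52.3 to 55.2), and in control at 241 and 525 CPM. The median dexamethasone cell held 192 CPM on day 2 and 27.4 on day 3, and 1 day 3 cell gave 20.1% of the plate's counts. The median control cell held 140 CPM on day 2 and 11.3 on day 3. On control day 3, 5 of 93 cells gave 67.8% of the counts, the highest at 11810.2 CPM, and 46 cells were under 10 CPM.

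Immediate early genes, which growth factor signals switch on within minutes, were lower on day 3 for 9 of 9 above the level filter, and 5 of them at least 2-fold. Their median log2 ratio was -1.31, against -0.52 in control. Egr1, a zinc finger factor, was at 388 CPM (385 to 392) and 34.2 CPM (33 to 35.3). All 92 day 2 cells had a count of it, from 1.06 to 2157 CPM, against 48 of 94 day 3 cells with at most 375 CPM. Nab2, a corepressor that binds EGR1, was at 19.7 and 1.52 CPM, with a log2 ratio of -3.69 that ran from -5.55 in female to -2.77 with equal weight per cell. Fos was at 51.8 and 10.5 CPM, and its log2 ratio of -2.31 was -3.52 without the cells carrying myeloid or mast cell markers. Junb was at 88.4 and 44.4 CPM and Dusp1, a phosphatase of MAP kinases, at 70.1 and 48.4 CPM. Klf6 was at 85.9 and 31.5 CPM, with a log2 ratio of -0.64 in female and -2.46 in male cells, and in control it was at 85.3 and 167 CPM, with cell medians of 24.2 and 33.9.

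Genes of erythropoietin and STAT5 signalling showed no common direction: 7 of 14 were higher and 7 lower, with 2 at least 2-fold higher. Pim1, a survival kinase, was at 22.4 and 46.7 CPM, with a log2 ratio of 1.06 that was 0.99 with scaling by library size only. Cish, a feedback inhibitor, was at 69.2 and 111 CPM. Podxl, a sialomucin of progenitors, was at 35.8 and 78.9 CPM, with a log2 ratio of 1.14 that was 0.79 in female cells. Epor, the receptor itself, was at 169 and 225 CPM. Bcl2l1, which encodes BCL-XL, was at 79.8 and 55.8 CPM with dexamethasone, and at 145 and 378 CPM in control. The median control cell, at 87.5 and 74.7 CPM, did not follow that plate level.

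Cell cycle genes were slightly higher on the plate level. Of 31 genes of the G2 and M phases, 26 had a positive log2 ratio and 2 were at least 2-fold higher, with a median of 0.37. Of 32 S phase genes, 28 were positive and none reached 2-fold, with a median of 0.20. Ube2c, a ubiquitin enzyme of mitosis, was at 119.6 and 292 CPM, and Tyms, thymidylate synthase, was at 143 and 264 CPM. Cdc25b, a phosphatase that starts mitosis, was at 8.12 and 75.1 CPM, with cell medians of 0 and 3.86. The scores of the median cell did not show that shift: 5.94 and 5.77 for G2 and M, 6.90 and 6.90 for S phase. The CDK inhibitor gene Cdkn1a was at 431 and 346 CPM, and of 22 p53 targets 2 were at least 2-fold higher and 1 at least 2-fold lower.

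The 28 genes of MYC and ribosome biogenesis differed little between the plates, with a median log2 ratio of 0.07 and none at 2-fold. Their scores in single cells spread wider on day 3. The score had a median of 7.66 and a standard deviation of 0.79 on day 2, and 7.69 and 1.23 on day 3. At 500000 counts a cell the standard deviations were 0.79 and 1.21. Across the 94 day 3 cells it went down with the membrane score, at a Spearman rho of -0.54, against -0.09 across the 92 day 2 cells. With only cells at 10 CPM or more of Gata1 the values were -0.63 and -0.11. Kit had a rho of -0.53 with the membrane score on day 3 and 0.14 on day 2, and the heme list had 0.87 and 0.63. Points of a correlation are cells of 1 plate and share its library preparation; the number of genes detected also went with the membrane score, at -0.45 on day 3 and -0.16 on day 2, and its part in these values was not tested.

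**Figure D5:**
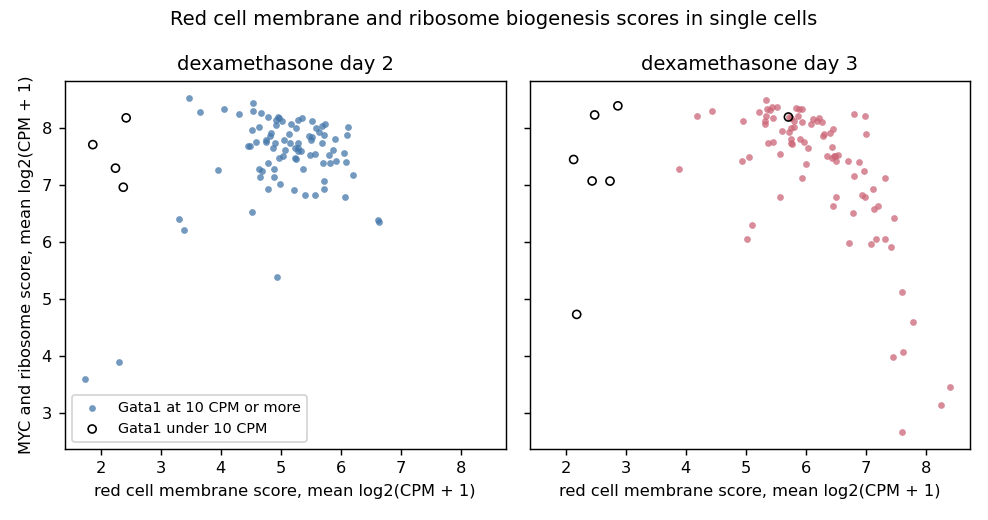
Score of MYC and ribosome biogenesis genes (vertical axis) against the red cell membrane score (horizontal axis), both mean log2(CPM + 1), in single dexamethasone cells of day 2 (left) and day 3 (right); open circles are cells under 10 CPM of Gata1. On day 3 the cells with the highest membrane scores have the lowest ribosome scores, down to 2.66.

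Genes of the late remodelling of red cells, which clears organelles and proteins, were divided. Of 19 above the level filter, 5 were at least 2-fold higher, with a median log2 ratio of 0.19, against 1.01 for the same 19 genes in control. Of the 21 genes above the filter in control, 12 were at least 2-fold higher there. Trim10 was at 7.89 and 79.5 CPM, with a log2 ratio of 3.33 that was 2.55 in female and 4.83 in male cells, and Hemgn, a nuclear factor of erythroid cells, at 53.7 and 237 CPM. Bpgm, which makes 2,3-bisphosphoglycerate, was at 33.3 and 62.8 CPM with dexamethasone and at 38.3 and 268 CPM in control. Xpo7, a nuclear exporter, was at 47.4 and 34.3 CPM with dexamethasone and at 53.9 and 285 CPM in control. Tmcc2 was at 1.05 and 4.23 CPM, and at 103 and 997 CPM in control. The control day 3 levels were uneven: 5 cells gave 49.9% of the Bpgm counts, 72.7% of Xpo7 and 63.2% of Tmcc2, and the median control cell of Xpo7 went from 21.4 to 17.9 CPM.

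Among antioxidant enzymes, 4 of 21 were at least 2-fold higher, with a median of 0.10. Prdx2, the abundant peroxiredoxin of red cells, was at 438 and 1443 CPM, with cell ranges of 1.23 to 1277 and 167 to 5916. Gpx1, glutathione peroxidase, was at 485 and 1369.9 CPM, and Mgst3, a microsomal glutathione transferase, was at 32.1 and 238 CPM. Of amino acid and stress response genes, 4 of 22 were at least 2-fold lower, with a median of -0.44, and 2 without the cells carrying myeloid or mast cell markers. Among them Slc7a11, the cystine importer, was at 16.7 and 4.99 CPM, with a log2 ratio of -1.74 that was -1.08 without those cells. Cth, which makes cysteine from cystathionine, was at 18.9 CPM on day 2 and had 4 day 3 cells with a count.

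Several of the largest decreases were of genes outside the lists, each with a count in a minority of day 3 cells. Cd200r3 and Cd200r4, receptors of the CD200 family, were at 52.6 and 4.07 CPM and at 34.4 and 4.39 CPM. Il10ra, the interleukin 10 receptor, was at 23.7 CPM on day 2, and on day 3 only 1 cell had a count. Plod2, a collagen lysyl hydroxylase, was at 26.5 and 2.96 CPM, and Ak4, a mitochondrial adenylate kinase, was at 39.1 and 4.70 CPM. The 2 membrane transporter genes Slc26a9 and Slc45a3 were at 34.4 and 4.25 CPM and at 21.7 and 3.37 CPM. On day 1 of the same culture Cd200r3 was at 0.158, Plod2 at 5.73 and Slc26a9 at 0.897 CPM, under the day 2 levels. Without the cells carrying myeloid or mast cell markers the log2 ratios went from -3.15 to -5.23 for Plod2, from -3.05 to -4.47 for Ak4, from -3.01 to -2.24 for Slc26a9, from -2.68 to -1.80 for Slc45a3 and from -3.97 to -3.38 for Il10ra.

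Lipid genes held large changes in opposite directions. Plin2, which coats lipid droplets, was at 49 and 246 CPM, and 1 day 3 cell gave 27.8% of its counts while the median cell went from 40.9 to 126 CPM. Apoa1, an apolipoprotein, was at 59.5 and 3.67 CPM, with a log2 ratio of -4.01 that was -2.44 without the cells carrying myeloid or mast cell markers. Abcg1, a cholesterol exporter, was at 164 and 65.8 CPM, against 5.04 and 18.2 CPM in control, where the median cell was at 0 on both days. Cholesterol synthesis showed no gene at 2-fold of 23, with a median of 0.12. Interferon response genes were mostly under the level filter, 21 of 27, and 2 of the other 6 were at least 2-fold higher, among them Ifi35 at 42 and 94.8 CPM (log2 ratio 1.17, and 0.94 in female cells). Of the 8 BCL2 family genes above the filter, Pmaip1, which encodes NOXA, was lower at 72.3 and 31.8 CPM, with a log2 ratio of -1.18 that was -0.57 without the cells carrying mast or myeloid markers. Of 14 genes of G1 cyclins and CDK inhibitors 1 was at least 2-fold higher and 2 at least 2-fold lower. None of the 8 mitochondrially encoded genes above the filter reached 2-fold.

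Other blood lineages were depleted before culture with antibodies that include CD11b, Ly-6G, CD16/32 and CD41, and some of their markers were still found. Hdc, the histidine decarboxylase of mast cells and basophils, was at 681 and 40.8 CPM. The highest day 2 cell, with 36738 CPM, gave 37.6% of its counts, but the median cell also went from 146 to 1.02 CPM. The log2 ratio was -3.42 without the cells carrying mast or myeloid markers. Hdc is itself on the list that picked those cells, so that value is no separate check of its decrease. Over the 15 mast and basophil markers the plate sums were 906 and 239 CPM. Mcpt4, Tpsab1, Prss34, Fcer1a and Rnase12 had no count on day 2, and at least 2 markers reached 10 CPM in 45 and 28 cells. Alox5, a lipoxygenase on the same list, was higher on day 3, at 84.3 and 194 CPM. Of 20 neutrophil and monocyte markers, 18 had a count on each day, the sums were 525 and 630.1 CPM, and 6 and 11 cells carried at least 2 of them. Lyz2 was at 0.898 and 50.8 CPM, with 83.8% of the day 3 counts in 1 cell. Pf4, a platelet factor, was at 104 and 5.38 CPM, with 62.9% of the day 2 counts in 1 cell and a log2 ratio of -4.26 that was -8.56 without the marker cells. The 19 megakaryocyte markers summed to 1208 and 735 CPM with Ppbp and Gp6 at 0 on both days. At least 2 of them reached 10 CPM in 90 of 92 day 2 and 90 of 94 day 3 cells, so this rule sets no separate cells apart. Plek, pleckstrin, and Itgb3, an integrin, were at 449 and 215 CPM and at 96.1 and 47.4 CPM. Macrophage, lymphoid and eosinophil markers summed to at most 14.2 CPM on either plate. Without the cells low in Gata1, 331 genes were at least 2-fold higher and 297 at least 2-fold lower.

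The control culture took the same day step on plates of its own. Of 8164 genes at its level filter, 358 (4.39%) were at least 2-fold higher on control day 3 and 348 (4.26%) at least 2-fold lower. Among 7801 genes at that level in both cultures, 57 were at least 2-fold higher in each, which is 20.4% of the dexamethasone list and 22.4% of the control list. At least 2-fold lower in each were 41 genes, 24.6% and 13.4% of the lists. Across those genes the log2 ratios had a Spearman rho of 0.31, which is a description over genes and not over replicates. Another 7 genes were 2-fold higher with dexamethasone and 2-fold lower in control, and 11 the reverse. They are out of 279 genes higher and 167 lower with dexamethasone among the 7801. In control, 307 of the 7801 were lower and 254 higher. With 1 plate a group the difference between the cultures was not tested.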

How the data were processed

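Each of 6 plates of 96 wells held sorted single cells, whose polyadenylated RNA was sequenced. The authors deposited counts, whole numbers for every gene in every well. STAR 2.4, featureCounts and build GRCm38 are named per the submitters' processing notes. Annotation release, strand setting and the handling of multi-mapping reads were not given in the sources used here. No molecular identifiers are stated, so intervals cover counting of reads only. Of 576 value columns 575 matched a labelled well and 1 was not used. The header has an empty cell after the gene name, which was dropped: in this reading unscaled Hbb-bt is at 27.2, 985 and 2187 CPM on control days 1 to 3 and 3.99, 45.9 and 392 with dexamethasone, and a shift by 1 column would put each well on another plate and break this order. Counts were summed over kept cells per plate and scaled by TMM over the 6 plates (edgeR 4.0.16); log2 ratios used a prior count of 2, and genes were counted at a log2 ratio of 1 or more among those with a mean of 10 CPM or more over the 2 plates. No test was run, since each group is 1 plate. The scaling and ratio steps were tested on simulated data, Poisson counts of whole plates drawn from a shared profile with planted changes. Those data held no variation between cells or plates, so they cannot tell how often such variation alone gives a call. Scores used log2(CPM + 1). No doublet caller was run on these sorted wells; 1 well on each dexamethasone plate carried both Xist and Y-linked transcripts.

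The members and the 23 gene lists and 8 marker lists were chosen with earlier results of these data known. Of 596 list genes 594 were found by symbol; coordinates came from GENCODE vM21 for 49326 gene identifiers. Genes were named as the 12 largest changes in each direction (a count in at least 25% of cells of the higher plate, no cell above 20% of its counts, predicted genes left out), the 3 largest of each list at that level, and a set of well-known erythroid and glucocorticoid genes; other list members were named after their values were seen. Some list members are counted in their lists but not reported here singly. Promoter sequences are RefSeq's. Near-identical copies (Hba-a1 and Hba-a2, Hbb-bs and Hbb-bt, Fth1 and Ftl1), and overlapping or antisense genes, may exchange reads.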

Additional observations from a re-analysis of the deposited data

Results flagged for a closer look

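Slc2a1, the glucose transporter, went opposite ways in the plate levels of the 2 cultures from day 2 to day 3: its log2 ratio was -1.99 with dexamethasone and 1.12 in control. The median cell was lower on day 3 in both: 192 and 27.4 CPM with dexamethasone, 140 and 11.3 CPM in control. Only 5 cells gave 67.8% of the control day 3 counts. Abcg1, the cholesterol exporter, had -1.32 and 1.85, with control cell medians of 0 on both days and 51.1% of the control day 3 counts in 1 cell. Btg1, an antiproliferative gene, had -1.26 and 1.02, from 14.9 and 6.24 CPM with dexamethasone and 13.3 and 27 CPM in control; the first was -0.49 in female cells, and the median control cell went from 1.43 to 0.776 CPM. Perp, a p53 target, had 1.06 and -1.56, from 42 and 87.8 CPM and 17.9 and 6.05 CPM; the first was 0.80 with equal weight per cell and 0.84 in female cells, and 1 cell gave 67.9% of the control day 2 counts. These differences between the cultures were not tested, since each group is 1 plate.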

How the results depend on the processing

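The numbers of genes at least 2-fold higher (305) and lower (259) stayed within 1.5 times under 11 and 10 of 14 alternatives. They were 1062 and 940 with the filter at 1 CPM, 97 and 73 with it at 50 CPM, and 4538 and 4455 without a filter on low counts, where genes with few reads pass. Among male cells 447 genes were lower. The share of day 3 cells above the day 2 percentile was 70.7% without cells carrying myeloid or mast markers and 79.1% in male cells, and the difference of 0.92 in the median score was 0.55 with a pseudocount of 10, 0.60 for a score of heme and iron genes, each a score on another scale, and 0.84 to 1.27 under the other 6. Scaling by library size only gave 268 higher and 303 lower genes. List medians near 0 that changed sign were those of erythropoietin and STAT5 genes (0.05, and -0.03 at the lowest under 4 alternatives), p53 targets (-0.09, and 0.02 without the marker cells and 0.11 in male cells) and MYC and ribosome biogenesis (0.07, and -0.11 without the marker cells). Also changing sign were the cholesterol list (-0.03 with equal weight per cell), the neutrophil list (-0.03 in female cells), Cd34 (-2.01 without cells carrying those markers and -1.55 without cells low in Gata1), Lyz2 (-0.96 without the marker cells) and Ly6c2 (-2.49 in female cells); the cause was not tested. Of 100 named genes, 26 crossed 2-fold or moved by over 1.5 times without the marker cells, 26 in female cells, 24 in male cells, 15 with equal weight per cell, 7 without cells low in Gata1, and 2 each with a prior count of 0.5 and with library size only. The alternatives without cells low in Gata1 and by sex were chosen after seeing the data. No paired analysis was possible because no group has a second plate. With 1 plate a day, a plate effect and a change from day 2 to day 3 cannot be told apart, and the ratio of Slc4a1 is limited by its 10 counts on day 2.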
